A study of Mus musculus with 15 samples.

Results

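Collagens are triple-helical proteins of the extracellular matrix, built from chains that each have their own gene. The fibrillar collagens form the banded fibrils of dermis and cartilage. The basement membrane collagens form the sheet under an epithelium and the fibrils that fasten it to the dermis. The remaining types decorate fibrils, form beaded filaments or open networks, or span the cell membrane. In skin the abundant interstitial collagens are mostly products of dermal fibroblasts, whereas keratinocytes contribute to the basement membrane and its anchoring fibrils. The family was taken as every mouse gene named Col, a number, a and a number, apart from Col17a1, after the identifiers in the files were matched to gene symbols. This gave 43 collagen genes of 36528 genes in the files, of which 11 were fibrillar, 9 belonged to the basement membrane and 23 were of other types.

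Collagen transcripts were read in polyA RNA of tumour cells sorted from mouse basal cell carcinoma, a skin tumour driven by Hedgehog signalling. The 15 libraries comprised 3 from mice given vismodegib for 14 days, 8 from mice given it for 6 days and 4 controls, which the series describes as untreated. Vismodegib blocks SMO, the transducer of the Hedgehog signal. All groups carried the same alleles, which the labels give as K14Cre-ER, Ptch1fl/fl, p53fl/fl and Lgr5GFP, that is an inducible Cre under a promoter of basal keratinocytes, conditional alleles of the Hedgehog receptor and of p53, and a fluorescent reporter at Lgr5. The sources used here give neither the gate of the sort nor the age of the mice. Whether each library is a separate animal is not stated, so p-values cover the spread among the libraries, which may be technical.

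Total counts ran from 27336935 to 256569828 per library. By the numbers in their sample identifiers the libraries fell into 3 ranges, whose meaning the labels leave unstated. The shallow libraries, 27336935 to 38657170 counts each, were 6-day replicates 1, 3, 4, 6 and 8 with controls 1 to 3, called range A below. Deeper ones, 93183564 to 256569828 counts each, were 6-day replicates 2, 5 and 7 with control 4, called range B. The 3 14-day libraries, also deep at 119045864 to 162951666 counts each, formed a range of their own, C. That range and its depth therefore cannot be told apart from 14 days of treatment. Every control was shallower than every 14-day library, which matters most for genes with few counts. Levels of 1 gene across libraries are given as CPM (each library's counts on a common total, after TMM correction for composition). Levels of different genes are compared as the deposited RPKM, which also divides by gene length.

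A collagen gene was called where its adjusted p from edgeR's quasi-likelihood test, adjusted over all 18751 genes tested, was under 0.05. A filter on low counts passed 35 of the 43 members, 10 fibrillar, 9 of the basement membrane and 16 others. The 8 that did not pass were Col6a5, Col9a1, Col10a1, Col11a1, Col13a1, Col19a1, Col22a1 and Col26a1, and none of them exceeded 0.212 RPKM in any library. At 14 days 9 members were called against control, and at 6 days 2 were. Sequences before a RefSeq start of Col16a1, Col27a1 and Col25a1 are shown. These were the 3 called members whose 14-day libraries overlapped neither the 6-day libraries nor the controls, Col16a1 above both and the other 2 below both. The 250 bases before that start (GRCm38.p6, plus strand in all 3) lie at chr4:130047590-130047839 for Col16a1, chr4:63215162-63215411 for Col27a1 and chr3:130180595-130180844 for Col25a1. The gene spans given below begin at 130047817, 63214009 and 130180358 in the same order. The Col27a1 and Col25a1 windows thus lie inside the gene spans and the Col16a1 window overlaps its span, so none is upstream of the whole gene. In these 3 windows capitals mark the GC box GGGCGG and the CCAAT box on either strand.
Col16a1: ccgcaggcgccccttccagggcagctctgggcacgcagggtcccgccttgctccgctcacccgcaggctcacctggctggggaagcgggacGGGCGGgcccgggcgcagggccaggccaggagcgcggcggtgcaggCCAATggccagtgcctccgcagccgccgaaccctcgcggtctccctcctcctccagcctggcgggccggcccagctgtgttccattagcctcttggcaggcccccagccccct
Col27a1: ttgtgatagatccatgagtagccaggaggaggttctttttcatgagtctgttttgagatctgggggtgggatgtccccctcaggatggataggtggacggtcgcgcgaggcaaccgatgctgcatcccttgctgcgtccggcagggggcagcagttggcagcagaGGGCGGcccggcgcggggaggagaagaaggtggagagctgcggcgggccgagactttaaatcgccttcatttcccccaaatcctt
Col25a1: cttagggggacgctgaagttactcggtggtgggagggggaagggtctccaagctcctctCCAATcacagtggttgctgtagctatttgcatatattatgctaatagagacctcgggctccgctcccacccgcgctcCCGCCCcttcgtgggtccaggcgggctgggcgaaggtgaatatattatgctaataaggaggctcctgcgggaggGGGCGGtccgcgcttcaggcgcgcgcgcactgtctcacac
Both strands of the upstream bases were searched for these letters. The 34 members with a RefSeq promoter entry had 37 windows. Of these, 22 held GGGCGG, against 32.7% of all 32851 windows of that length, and 12 held CCAAT, against 33.8% of all windows. The TATA box TATAAA was found in 4 of the 37 and in 12.4% of all windows. The GLI consensus TGGGTGGTC, after the transcription factors at the end of the Hedgehog pathway, was found in none of the 37, the 3 printed windows included. It was found in 0.225% of all windows, too few for its absence from 37 to be informative. GC content was 75.6% in the Col16a1 window, 59.6% in the Col27a1 window and 60.4% in the Col25a1 window. An exon of Gm12963, on the opposite strand, lies within the Col16a1 window.

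The abundant collagen transcripts in these cells were mostly of the basement membrane and of short or fibril-associated types. Over all 15 libraries 11 members averaged over 10 RPKM, 13 averaged 1 to 10 RPKM and 19 averaged under 1 RPKM. Col7a1, which forms the anchoring fibrils that hold epidermis to dermis, averaged 49.4 RPKM over all libraries, of which 8 of 15 were at 6 days. It was followed by Col8a2, a short-chain collagen of open networks, at 31.2 RPKM, Col4a1 at 28.9 RPKM, Col18a1 at 27.7 RPKM, Col4a2 at 26.8 RPKM and Col16a1, a fibril-associated collagen, at 25.8 RPKM. Each of these 6 means lay within the range of every other of the 6 over libraries, so their order does not exceed the spread. The order also differed between groups. At 14 days Col7a1 (mean 52.7 RPKM) and Col16a1 (50.6 RPKM) led, and at 6 days Col7a1 (54.7 RPKM) and Col8a2 (38.4 RPKM). In control Col4a1 (64.4 RPKM), Col4a2 (47.1 RPKM), Col14a1 (45.1 RPKM) and Col2a1 (37.8 RPKM) averaged above Col7a1 (36.3 RPKM), with overlapping ranges. The collagens of dermal fibrils were low, with means of 0.845 RPKM for Col1a1, 0.330 RPKM for Col1a2 and 0.179 RPKM for Col3a1, and the fibrillar transcript with the highest mean over all libraries was Col2a1, the main collagen of cartilage, at 22.4 RPKM. At 14 days alone Col5a2 averaged 12.5 RPKM and Col2a1 3.89 RPKM.

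**Figure D1:**
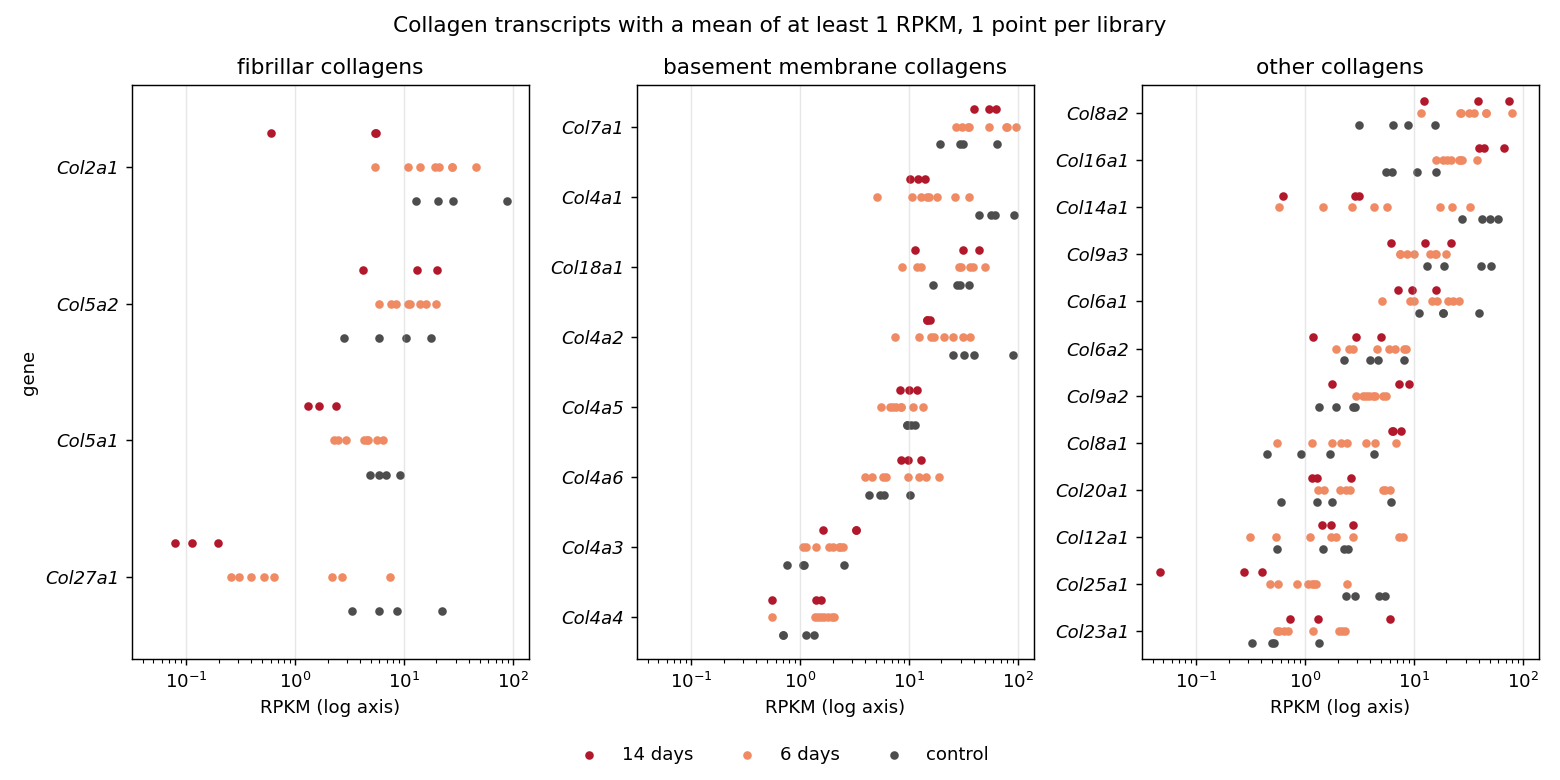
Deposited RPKM (x axis, log scale) of the 24 collagen genes with a mean of at least 1 RPKM, by class, with 1 point per library and rows within each gene for 14 days, 6 days and control. The Col27a1 points at 14 days (0.0800 to 0.198 RPKM) lie left of every control point (3.36 to 22.4 RPKM), whereas those of Col18a1 overlap.

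Summed over their members, the fibrillar collagens made up 2.51 to 8.65% of collagen RPKM at 14 days, against 8.62 to 18.4% at 6 days and 10.7 to 24.8% in control. Their sums were 7.0 to 28.2 RPKM at 14 days, 17.6 to 73.8 RPKM at 6 days and 27.4 to 122 RPKM in control, so that 1 14-day library overlapped the lowest control. The basement membrane sum was 120 to 156 RPKM at 14 days, 73.4 to 239 RPKM at 6 days and 135 to 298 RPKM in control. The other types summed to 116 to 173 RPKM at 14 days, 84.5 to 160 RPKM at 6 days and 93.5 to 179 RPKM in control. The sums are descriptions and were not tested, and each is led by few genes.

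**Figure D2:**
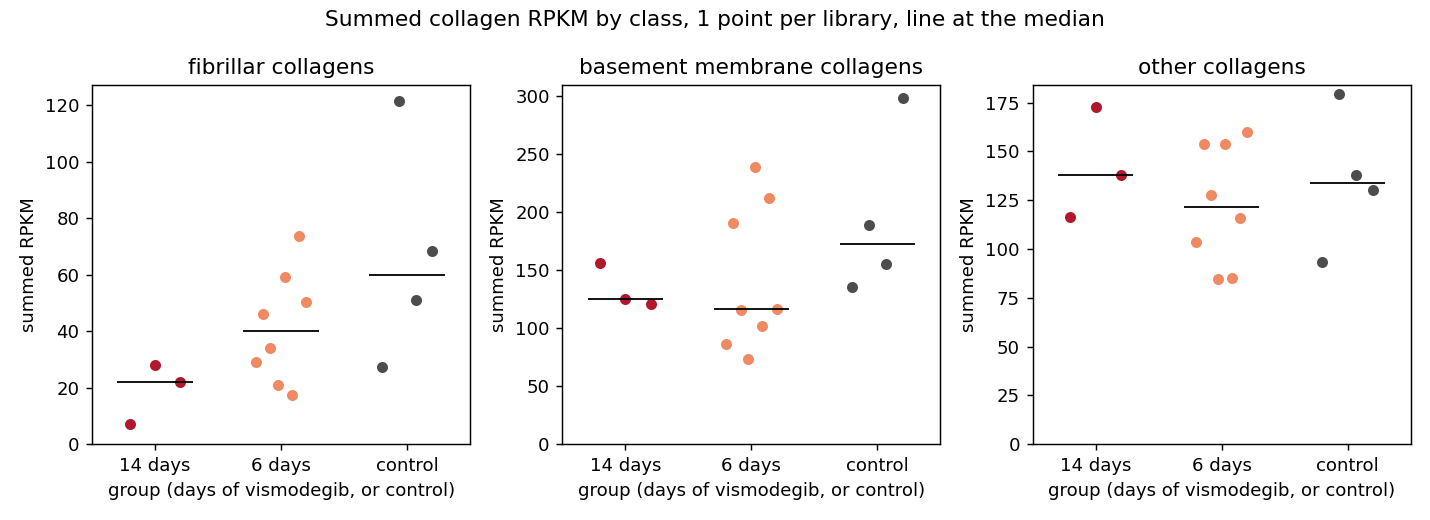
Summed deposited RPKM of fibrillar, basement membrane and other collagens (y axes from 0), with 1 point per library and a line at each group's median. The fibrillar median was 22.1 RPKM at 14 days, 40.1 RPKM at 6 days and 59.8 RPKM in control. The basement membrane median was 125 RPKM at 14 days, 116 RPKM at 6 days and 172 RPKM in control. For the other types it was 138 RPKM at 14 days, 122 RPKM at 6 days and 134 RPKM in control. The groups overlapped in every class.

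The comparison of 14 days with control asks which collagens differed after the longer treatment. Of the 35 members tested 9 were called, 7 lower and 2 higher, where 6.6% of all genes were called, 3.35% lower and 3.25% higher. The 7 lower were 3 fibrillar chains (Col2a1, Col5a1 and Col27a1), 1 basement membrane chain (Col4a1) and 3 of other types (Col6a3, Col14a1 and Col25a1), and the 2 higher were Col8a2 and Col16a1. The median log2 fold change was -0.55 over the 35 members and -0.02 over all genes tested. By class it was -1.95 for 10 fibrillar, 0.30 for 9 basement membrane and -0.56 for 16 other collagens. The 14-day libraries lay wholly below the controls for 10 members and wholly above them for 3 (Col16a1, Col8a1 and Col6a6). Col6a6 was at 0 in every control, and its lowest 14-day library (0.0958 CPM) lay under 3 counts in control 3 (0.103 CPM). Of all genes 23.4% had groups that did not overlap, 11.7% in either direction. Since all 3 comparisons use the same control or treated libraries, they are not independent of each other.

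**Figure D3:**
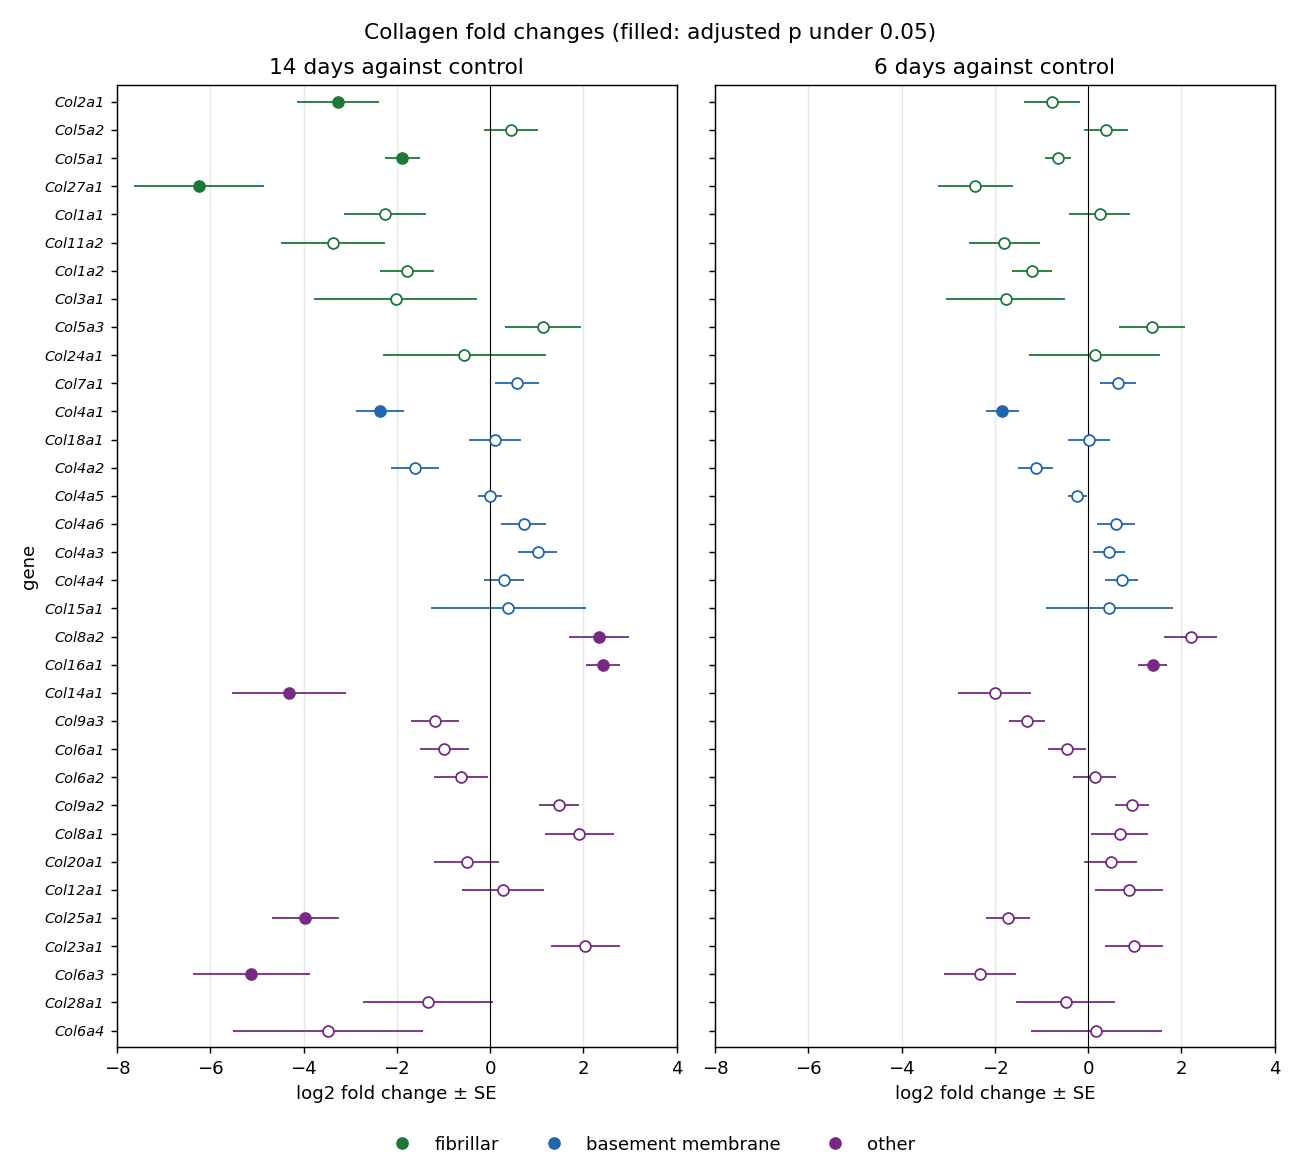
Log2 fold change with its standard error (x axis) of 34 tested collagen genes at 14 days and at 6 days against the same controls, coloured by class, with called genes filled. Col6a6, at 0 in every control, is left out. At 14 days 9 symbols are filled, 7 left of 0 and 2 right of it, and at 6 days those of Col4a1 and Col16a1 are.

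Among fibrillar collagens, Col27a1 (chromosome 4, 63214009 to 63334991; positions here and below are on GRCm38.p6) encodes a fibrillar chain known from cartilage. Its levels were 0.800, 1.16 and 1.99 CPM at 14 days, 2.60 to 76.7 CPM with a median of 5.86 CPM at 6 days, and 32.8, 59.4, 86.4 and 219 CPM in control. Every 14-day library lay below every 6-day library, and 7 of 8 6-day libraries lay below every control. At 14 days the log2 fold change was -6.24 (SE 1.39, adjusted p = 0.0163, edgeR). It was 45.4-fold lower without control 4, and without any 1 of the 14-day libraries the call was lost at up to adjusted p = 0.0865. At 6 days the log2 fold change of -2.42 (SE 0.81, adjusted p = 0.183, edgeR) did not pass. The value was -3.81 among range A libraries and -2.38 among those of range B, and with range B as a covariate it was called (-3.44, adjusted p = 0.000979).

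Col5a1 and Col5a2 encode chains of type V collagen, which starts the fibrils of other types. Col5a1 (chromosome 2, 27886381 to 28039510) stood at 13.5, 17.2 and 24.2 CPM at 14 days, at 23.6 to 66.5 CPM with a median of 45.5 CPM at 6 days, and at 48.5, 70.1, 59.1 and 92.8 CPM in control. The 14-day libraries lay below every control, and 2 of them below every 6-day library. It fell by 1.89 on the log2 scale at 14 days (SE 0.38, adjusted p = 0.0104, edgeR), a call lost in 1 of the 15 fits that left out a library, that without 14-day replicate 1 (3.24-fold lower, adjusted p = 0.0616). Its partner Col5a2 had 33.5, 161 and 105 CPM at 14 days, 46.7 to 161 CPM with a median of 90.9 CPM at 6 days, and 21.7, 142, 46.8 and 81.6 CPM in control. These groups overlapped, and neither log2 fold change passed (0.45 at 14 days, adjusted p = 0.690, and -0.07 without 14-day replicate 2; 0.38 at 6 days, adjusted p = 0.876; edgeR).

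Col2a1 (chromosome 15, 97975602 to 98004724) had 4.28, 39.2 and 39.3 CPM at 14 days, 38.5 to 334 CPM with a median of 143 CPM at 6 days, and 88.1, 625, 199 and 142 CPM in control. The 14-day libraries lay below every control, and control 2 stood above the rest. Its log2 fold change at 14 days was -3.26 (SE 0.88, adjusted p = 0.0394, edgeR). That call was lost without control 2 (5.19-fold lower, adjusted p = 0.0961), without control 3 (adjusted p = 0.0621), without any 1 of the 14-day libraries (adjusted p up to 0.131), without 6-day replicate 3 or 8 (0.0526 and 0.0504), and where only the 2 groups were fitted (0.115). Of the other fibrillar chains, Col1a1 had a log2 fold change of -2.25 at 14 days (adjusted p = 0.133, edgeR), at 0.850 to 1.26 CPM against 1.34 to 8.80 CPM in control. Col11a2 had -3.36 (adjusted p = 0.0839), at 0.698 to 1.53 CPM against 2.22 to 32.4 CPM in control, where control 4 alone exceeded 3.03 CPM. Both sets of 14-day libraries lay below every control, and neither change passed. Col1a2 had -1.78 (adjusted p = 0.0776) and passed with range B as a covariate (-1.80, adjusted p = 0.0401).

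**Figure D4:**
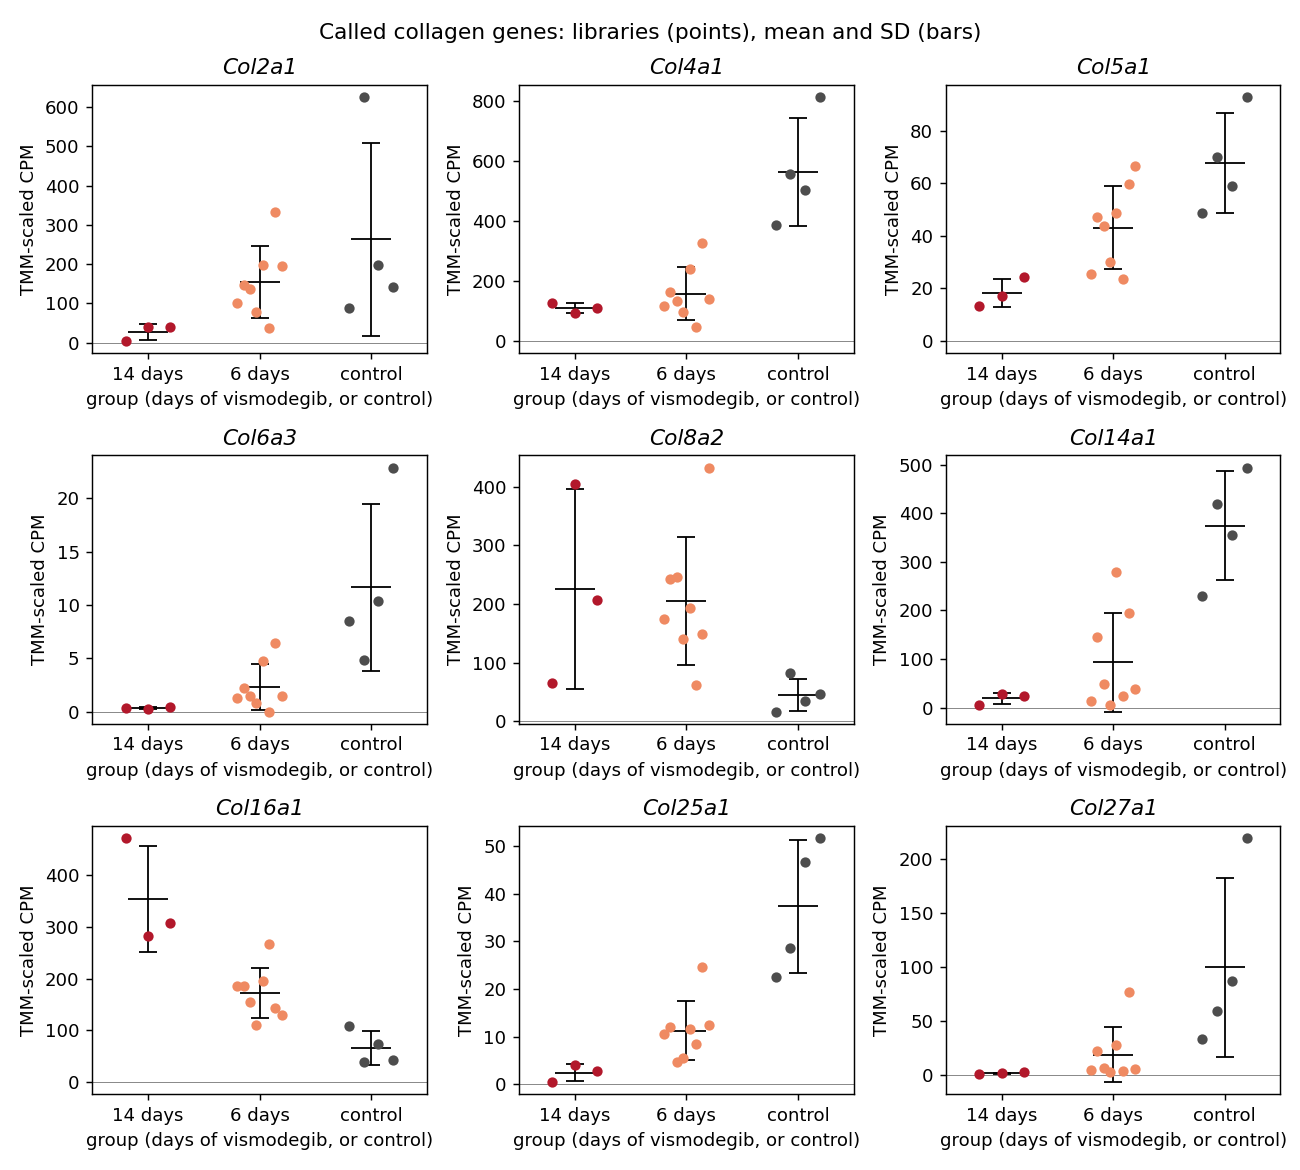
TMM-scaled CPM of the 9 called collagen genes (linear y axes), with 1 point per library and the group mean and SD as bars. At 14 days 8 of the genes are separate from the controls, and the lowest of the 3 Col8a2 libraries (65.5 CPM) lies under the highest control (82.3 CPM).

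In the basement membrane class Col4a1 was the single called member. Col4a1 and Col4a2 encode the chains of the type IV network found in most basement membranes, and their genes lie head to head on chromosome 8. The RefSeq starts used here overlap by 22 bases, and the Col4a1 span given below runs on past them to 11312889. These bases hold GGGCGG, which is left in lower case here. The overlap, at chr8:11312805-11312826 (GRCm38.p6, shown on the plus strand, that of Col4a2, because both transcripts cover it), reads:
Col4a1 and Col4a2: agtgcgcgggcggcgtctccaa
Col4a1 (chromosome 8, 11198423 to 11312889) had 126, 93.5 and 110 CPM at 14 days, 46.1 to 328 CPM with a median of 137 CPM at 6 days, and 387, 556, 504 and 814 CPM in control. All 3 libraries at 14 days and all 8 at 6 days lay below every control. It fell by 2.36 on the log2 scale at 14 days (SE 0.51, adjusted p = 0.0147, edgeR) and by 1.84 at 6 days (SE 0.36, adjusted p = 0.0268, edgeR). The 6-day value was -2.19 among range A libraries and -1.75 among those of range B, where alone it did not pass (adjusted p = 0.0743). The 14-day call was lost without any 1 of the 14-day libraries (adjusted p up to 0.0630), and the 6-day call without control 2, 3 or 4 or 6-day replicate 1, 2, 3 or 8 (adjusted p up to 0.0692).

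Its partner Col4a2 had 120, 116 and 114 CPM at 14 days, 58.5 to 288 CPM with a median of 147 CPM at 6 days, and 193, 306, 244 and 679 CPM in control. The 14-day libraries lay below every control, as did 5 of 8 at 6 days. Its log2 fold changes, -1.61 at 14 days (adjusted p = 0.0692, edgeR) and -1.12 at 6 days (adjusted p = 0.183), did not pass. With range B as a covariate both passed (adjusted p = 0.0130 at 14 days and 0.00584 at 6 days). Col4a1 and Col4a2 share the 22 exon bases and nothing in the sources used here says that strand was used in counting.

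The chains of other type IV networks were not called. Col4a3 and Col4a4 form a network known from kidney and lung together with Col4a5, and Col4a5 and Col4a6 one known from skin and smooth muscle. At 14 days the log2 fold changes were 1.02 for Col4a3 (16.8 to 34.0 CPM against 7.74 to 26.2 CPM in control, adjusted p = 0.151), 0.30 for Col4a4, -0.01 for Col4a5 and 0.72 for Col4a6 (68.0 to 104 CPM against 33.7 to 80.0 CPM in control, adjusted p = 0.392). At 6 days they ran from -0.24 for Col4a5 to 0.72 for Col4a4. With range B as a covariate Col4a6 was called at 14 days (1.09, adjusted p = 0.0141).

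Col7a1 and Col18a1, a heparan sulphate proteoglycan of basement membranes, were the other abundant members of the class. Col7a1 had 614, 721 and 448 CPM at 14 days, 303 to 1093 CPM with a median of 516 CPM at 6 days, and 213, 334, 345 and 709 CPM in control. Its log2 fold change was 0.57 at 14 days (adjusted p = 0.502, edgeR) and 0.63 at 6 days (adjusted p = 0.584). With range B as a covariate the 14-day value was 0.99 and was called (adjusted p = 0.0143). Col18a1 had 501, 132 and 363 CPM at 14 days, 99.1 to 579 CPM with a median of 340 CPM at 6 days, and 327, 408, 187 and 310 CPM in control, with overlapping groups. Its log2 fold changes were 0.11 at 14 days (adjusted p = 0.935, edgeR; -0.31 without 14-day replicate 1) and 0.03 at 6 days (adjusted p = 0.995; -0.56 without range B), with no stable sign. Col15a1, its relative, reached at most 1.14 CPM.

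Among the remaining types, Col16a1 and Col14a1 belong to the fibril-associated collagens and were called in opposite directions. Col16a1 (chromosome 4, 130047817 to 130099277) had 471, 282 and 307 CPM at 14 days, 111 to 267 CPM with a median of 170 CPM at 6 days, and 109, 38.7, 73.1 and 42.9 CPM in control. The groups did not overlap in any comparison, and every 14-day library lay above every 6-day library. It rose by 2.42 on the log2 scale at 14 days (SE 0.36, adjusted p = 0.00245, edgeR) and by 1.38 at 6 days (SE 0.30, adjusted p = 0.0381). At 14 days the call held without each of the 15 libraries in turn (4.50- to 6.88-fold). At 6 days it held in 5 of 15 such fits. It was lost without control 2 (2.22-fold, adjusted p = 0.134), control 3 or 4, 14-day replicate 3 or 6-day replicate 1, 2, 3, 5, 6 or 8. It was also lost in range A alone (1.19, adjusted p = 0.121), without range B (0.113) and in a fit of the 2 groups alone (0.0567).

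Col14a1 (chromosome 15, 55307644 to 55520803), which binds the surface of interstitial fibrils, had 5.38, 26.9 and 24.2 CPM at 14 days, 4.89 to 280 CPM with a median of 42.5 CPM at 6 days, and 230, 419, 356 and 494 CPM in control. The 14-day libraries lay below every control, as did 7 of 8 at 6 days. It fell by 4.31 on the log2 scale at 14 days (SE 1.22, adjusted p = 0.0476, edgeR). This call was lost without control 2, 3 or 4, without any 1 of the 14-day libraries or without 6-day replicate 2, 3 or 8 (adjusted p up to 0.183), with thinned counts (0.050) and with no filter on low counts (0.0528). At 6 days the log2 fold change was -2.0 (adjusted p = 0.273), with -3.74 among range A libraries and -1.26 among those of range B. With range B as a covariate it was -3.22 and was called (adjusted p = 0.00972). The 3 deep 6-day libraries of range B were the highest, at 146, 280 and 195 CPM, against 4.89 to 47.8 CPM in the 5 of range A. The difference between the ranges at 6 days was not tested.

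Col8a2 (chromosome 4, 126286794 to 126314330) had 65.5, 405 and 207 CPM at 14 days, 62.2 to 433 CPM with a median of 183 CPM at 6 days, and 16.3, 82.3, 33.5 and 46.2 CPM in control. Of 3 libraries at 14 days 2 lay above every control, as did 7 of 8 at 6 days. It rose by 2.34 on the log2 scale at 14 days (SE 0.64, adjusted p = 0.0407, edgeR), while the 6-day value of 2.20 (SE 0.57, adjusted p = 0.0737) did not pass, and with range B as a covariate did (2.21, adjusted p = 0.0427). The 14-day call was lost without 14-day replicate 2 (3.08-fold, adjusted p = 0.185), 14-day replicate 3, control 1, 3 or 4, or 6-day replicate 1, 2, 3 or 5. It was also lost without range B (adjusted p = 0.0788), in a fit of the 2 groups alone (0.107) and with counts thinned to the lowest total (0.0512). Its partner Col8a1 had 38.7 to 47.1 CPM at 14 days, above every control (2.68 to 25.7 CPM), with a log2 fold change of 1.92 that did not pass (adjusted p = 0.133, edgeR), and with range B as a covariate it did (1.69, adjusted p = 0.0332).

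Col25a1 (chromosome 3, 130180358 to 130599884) encodes a transmembrane collagen, also found in amyloid plaques and needed in mice for the innervation of muscle. It had 0.458, 4.02 and 2.69 CPM at 14 days, 4.74 to 24.7 CPM with a median of 11.1 CPM at 6 days, and 22.6, 28.5, 46.6 and 51.7 CPM in control. Every 14-day library lay below every 6-day library, and 7 of 8 6-day libraries lay below every control. It fell by 3.97 on the log2 scale at 14 days (SE 0.72, adjusted p = 0.00657, edgeR), and the call held without each library in turn, at 23.5-fold without 14-day replicate 2. At 6 days the log2 fold change was -1.73 (adjusted p = 0.0922), -1.98 among range A libraries and -1.69 among those of range B. With that range as a covariate the 6-day value passed (-1.88, adjusted p = 0.0218). Col23a1, another transmembrane collagen, had 45.5, 5.64 and 10.1 CPM at 14 days against 2.42 to 9.87 CPM in control (2.04, adjusted p = 0.113), where 1 library carried most of the level.

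Type VI collagen forms beaded filaments from the chains of Col6a1, Col6a2 and, most often, Col6a3. Col6a3 (chromosome 1, 90766860 to 90844001) was scarce, at 0.328, 0.241 and 0.429 CPM at 14 days, 0 to 6.44 CPM with a median of 1.46 CPM at 6 days, and 8.48, 4.84, 10.4 and 22.9 CPM in control. The 14-day libraries lay below every control, as did 7 of 8 at 6 days. It fell by 5.12 on the log2 scale at 14 days (SE 1.25, adjusted p = 0.0256, edgeR), a call lost without any 1 of the 14-day libraries (adjusted p up to 0.113) and with thinned counts (0.0514). At 6 days its log2 fold change was -2.33 (adjusted p = 0.182), called with range B as a covariate (-2.81, adjusted p = 0.0139). Col6a1 and Col6a2 were at higher levels, 34.6 to 76.3 and 8.50 to 36.1 CPM at 14 days against 51.6 to 188 and 16.0 to 58.3 CPM in control, with log2 fold changes of -0.98 (adjusted p = 0.273) and -0.62 (0.566) that did not pass. Col6a6 had no count in any control, where 3 counts per library would give a mean of 0.0787 CPM. It averaged 0.177 CPM at 14 days, 2.26-fold that floor, and was not called (adjusted p = 0.105, edgeR). Its lowest 14-day library, at 0.0958 CPM, lay under the floor of control 3 (0.103 CPM).

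The comparison of 6 days with control gave few calls. Of the 35 members 2 were called, Col4a1 lower and Col16a1 higher, where 1.26% of all genes were called, 0.773% lower and 0.485% higher. Of the 35, 14 had an unadjusted p under 0.05, where 12.7% of all genes did. The median log2 fold change was 0.14 over the members, -0.71 for fibrillar, 0.45 for basement membrane and 0.33 for other collagens, against 0.03 over all genes. The 6-day libraries lay wholly above the controls for Col16a1 and Col9a2 and wholly below them for Col4a1. Of all genes 2.69% had groups that did not overlap, 1.22% higher and 1.47% lower. DESeq2 called 7 members and limma-voom 9, and a fit with range B as a covariate called 9, of which 7 were lower. Over all genes these fits called 846, 826 and 866. In simulated counts of this comparison edgeR recovered 77 of 100 genes changed 4-fold and 31 of 100 changed 2-fold, with 8 false calls of 116. The changed genes were drawn from those averaging over 2 CPM, so scarcer members are not covered.

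Between 14 and 6 days edgeR called none of the 35 members, where 3.89% of all genes were called, 2.14% higher and 1.75% lower. An unadjusted p under 0.05 was reached by 8, where 23.1% of all genes did. DESeq2 called 8 members and limma-voom 10, where over all genes they called 2585 and 4693. The nearest were Col5a1 (log2 fold change -1.24, adjusted p = 0.0543, edgeR), Col25a1 (-2.24, 0.0562) and Col16a1 (1.04, 0.0629). Col27a1 had -3.82 (adjusted p = 0.0797), and -1.69 without the range B libraries. With range B as a covariate 3 members were called, Col5a1 (-1.03, adjusted p = 0.0436), Col25a1 (-1.84, 0.0476) and Col27a1 (-1.85, 0.0344). Over all genes that fit called 2036. Of all members, 1 was wholly higher (Col16a1) and 2 were wholly lower (Col25a1 and Col27a1) at 14 days than at 6 days. Of all genes 11.7% had groups that did not overlap, 5.42% higher and 6.28% lower.

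Ratios between chains that share a trimer or family were taken within each library, so that scaling between libraries cancels, for 8 pairs with at least 10 counts in every library. The pairs were listed after levels of these genes had been seen, so the ratios are described and not tested. The RPKM ratio of Col4a1 to Col4a2 was 0.909, 0.696 and 0.833 at 14 days, 0.679 to 0.983 with a median of 0.822 at 6 days, and 1.73, 1.56, 1.78 and 1.03 in control. All treated libraries lay below every control. The mean log2 ratio was -0.31 ± 0.20 at 14 days (SD, n = 3), -0.31 ± 0.18 at 6 days (SD, n = 8) and 0.58 ± 0.36 in control (SD, n = 4). Its difference from control was -0.89 at either time, and -1.09 at 6 days within range A. The gap was narrower in range B, with 1.03 in control 4 against 0.708, 0.833 and 0.983 in the 6-day libraries.

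The ratio of Col9a2 to Col9a3, chains of a fibril-associated collagen of cartilage, was higher in treated cells. It was 0.289, 0.411 and 0.578 at 14 days, 0.283 to 0.462 with a median of 0.357 at 6 days, and 0.103, 0.0537, 0.0691 and 0.101 in control. All treated libraries lay above every control. The mean log2 ratio was -1.29 ± 0.50 at 14 days (SD, n = 3), -1.51 ± 0.27 at 6 days (SD, n = 8) and -3.67 ± 0.45 in control (SD, n = 4). Its difference from control was 2.38 at 14 days and 2.16 at 6 days, and 2.12 at 6 days within range A. The levels behind it were 5.81 to 30.1 CPM at 14 days, 9.89 to 18.7 CPM at 6 days and 4.33 to 9.28 CPM in control for Col9a2. For Col9a3 they were 22.3 to 81.0 CPM at 14 days, 27.2 to 72.3 CPM at 6 days and 47.5 to 185 CPM in control. Neither gene alone was called, but with range B as a covariate both were, Col9a2 at 14 days (adjusted p = 0.0274) and Col9a3 at 14 days (0.0331) and 6 days (0.0468). The partner chain gene Col9a1 was at 0 in all 8 6-day libraries and at most 1.07 CPM elsewhere. Exons of Col9a3 share 234 bases, 6.07% of their length, with the opposite-strand gene Tcfl5, whose reads cannot be told apart where strand is not used.

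The ratio of Col6a1 to Col6a2 was 2.43 to 3.61 at 6 days, against 3.95 to 4.86 in control, without overlap (log2 difference -0.57). At 14 days it was 8.12, 2.41 and 3.19, on both sides of the controls (log2 difference -0.20). The ratio of Col5a1 to Col5a2 was 0.0828, 0.179 and 0.312 as the lowest, median and highest at 14 days, against 0.384 to 1.74 in control, with no overlap. The ratio of Col4a3 to Col4a4 was 2.08 to 2.97 at 14 days, 0.772 to 2.06 at 6 days and 0.680 to 1.88 in control, so that the 14-day libraries lay above all others. The groups overlapped in every comparison for the remaining 3 pairs, Col4a5 to Col4a6, Col8a1 to Col8a2 and Col1a1 to Col1a2. Some ratios differed between ranges. Col1a1 to Col1a2 was 9.05 in control 4 and 10.4, 5.95 and 6.83 in the 6-day libraries of range B, against at most 5.56 elsewhere. Col4a3 to Col4a4 was 0.680 in control 4 and 0.859, 0.772 and 0.914 in those 6-day libraries, against at least 1.11 elsewhere. The part of range B in these ratios was not tested.

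**Figure D5:**
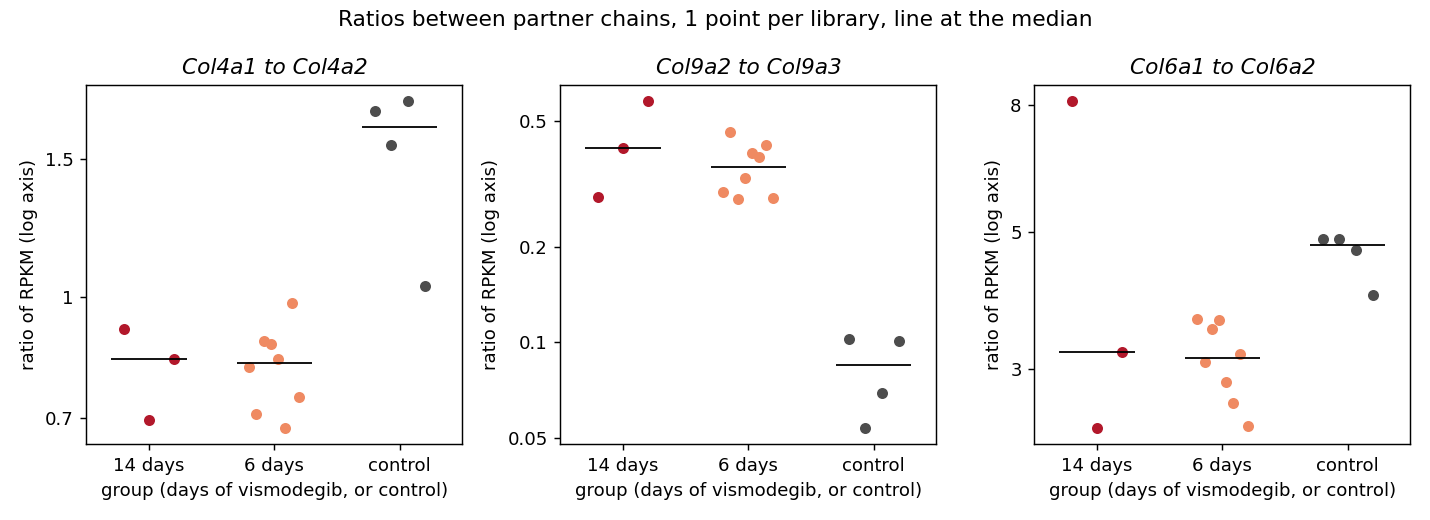
Ratio of RPKM between partner chains (y axes, log scale), with 1 point per library and a line at the group median. For Col4a1 to Col4a2 all 14-day and 6-day points (0.679 to 0.983) lie under the controls (1.03 to 1.78), and for Col9a2 to Col9a3 all of them (0.283 to 0.578) lie over the controls (0.0537 to 0.103).

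Genes that make, process, bind and degrade collagen were read from 6 lists. For these lists and the cell markers below, the share called over all genes was 6.6% at 14 days and 1.26% at 6 days. Between 14 and 6 days that share was 3.89%. Among 22 tested genes of chain modification and folding, 2 were called higher and 1 lower at 14 days and none at 6 days. P3h2, a prolyl 3-hydroxylase that acts on basement membrane collagen, had 118, 59.2 and 63.0 CPM at 14 days against 33.4, 9.54, 13.5 and 14.9 CPM in control (log2 fold change 2.17, adjusted p = 0.00743, edgeR). Colgalt1, which adds galactose to hydroxylysine, had 242, 224 and 196 CPM at 14 days against 132, 128, 142 and 104 CPM in control (0.80, 0.00545). Plod2, the lysyl hydroxylase that prepares crosslinks of fibril ends, had 2.89, 1.44 and 2.52 CPM at 14 days against 8.05, 14.3, 7.62 and 18.0 CPM in control (-2.39, 0.0126). The groups of all 3 genes were separate. P3h2 and Colgalt1 were lost in a fit of the 2 groups alone (adjusted p = 0.0590 and 0.0607), and Plod2 without 14-day replicate 2 or 3 (up to 0.0573). With range B as a covariate all 3 passed at 6 days as well (edgeR). The values were 1.43 for P3h2 (adjusted p = 0.0286), 0.43 for Colgalt1 (0.0308) and -1.38 for Plod2 (0.00626). The most abundant gene of the list, P4hb, the shared subunit of the prolyl 4-hydroxylases, had a log2 fold change of -0.06 at 14 days (adjusted p = 0.876).

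Of 12 tested genes of degradation 2 were called lower at 6 days and 1 at 14 days. Mmp14, a membrane protease that cuts collagen and activates other proteases, had 159, 76.6 and 103 CPM at 14 days, 97.9 to 176 CPM with a median of 125 CPM at 6 days, and 254, 294, 219 and 295 CPM in control. Timp3, a matrix-bound inhibitor of such proteases, had 302, 260 and 412 CPM at 14 days, 111 to 438 CPM with a median of 186 CPM at 6 days, and 760, 574, 790 and 841 CPM in control. All treated libraries of both genes lay below every control. Mmp14 fell by 1.24 at 14 days (adjusted p = 0.0106, edgeR) and by 1.04 at 6 days (0.0164) on the log2 scale. Timp3 fell by 1.78 at 6 days (0.00878), and its 14-day value of -1.19 did not pass (0.0726). With range B as a covariate the 14-day value did (-1.07, adjusted p = 0.0475, edgeR). In range B alone Timp3 did not pass at 6 days (0.147). The Mmp14 calls were lost at 6 days without control 2 (adjusted p = 0.0686), without range B (0.0585) or in range B alone (0.0536), and at 14 days without 14-day replicate 2 or 3 (0.0506 and 0.0550) or with the 2 groups alone (0.0621). Timp2, the most abundant uncalled gene of the list, had a log2 fold change of 0.92 at 14 days (adjusted p = 0.236).

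Of 13 basement membrane partners 2 were called lower at 14 days. Fbln2, a linker of basement membranes and microfibrils, had 62.0, 40.7 and 68.1 CPM at 14 days against 123, 215, 212 and 161 CPM in control (-1.64, adjusted p = 0.0167, edgeR), lost without 14-day replicate 1 or 2 (up to 0.0754). With range B as a covariate Fbln2 also passed at 6 days (-1.14, adjusted p = 0.0293, edgeR). Fras1, a basement membrane protein of the embryonic epidermis, had 7.78, 21.8 and 13.0 CPM at 14 days against 27.3, 82.6, 34.3 and 70.7 CPM in control (-1.92, 0.0267), lost without control 2 or 14-day replicate 1 or 3 (up to 0.133) and with the 2 groups alone (0.0931). Smoc2, the most abundant of the list, had 1.0 at 14 days (0.158). None of 6 crosslinking genes was called in any comparison by edgeR with no covariate. The most abundant, Pxdn, which crosslinks type IV collagen, had -1.10 at 14 days (0.10). With range B as a covariate Pxdn passed at 14 days (-0.85, adjusted p = 0.0454, edgeR).

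Among 8 procollagen processing genes and 9 receptors 1 of each was called, both higher at 14 than at 6 days. Adamts14, which removes the amino end of fibrillar procollagen, had 27.2, 0.217 and 9.71 CPM at 14 days against 0.105 to 3.09 CPM at 6 days, a log2 fold change of 3.42 (adjusted p = 0.0460, edgeR). The groups overlapped, and the call held in 4 of 15 fits that left out a library (4.34-fold without 14-day replicate 1, adjusted p = 0.469) and not with limma-voom (0.128), without the filter (0.0516) or with the 2 groups alone (0.0565). Lair1, a collagen receptor of leukocytes, had 1.35, 0.869 and 1.27 CPM at 14 days and was at 0 in 6 of 8 6-day libraries, with 0.0480 CPM as the highest (adjusted p = 0.0254, edgeR). It was lost without 14-day replicate 1 or 3 (adjusted p up to 0.166). Bmp1, which removes the carboxyl end of procollagen, had -1.22 at 14 days (0.139), and the integrin chain gene Itgb1 -0.23 (0.625).

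Markers of other cells were read in the same libraries, since in bulk RNA fewer cells of a type and less RNA per cell cannot be told apart. Krt14 and 8 other keratinocyte and tumour markers summed to 29819 to 41109 CPM at 14 days, 25158 to 40384 CPM at 6 days and 14623 to 22963 CPM in control, led by Krt5, Krt14 and Krt15. Of the 9, Krt15, Cdh1 and Itga6 were called higher at 14 days, and Krt15 also at 6 days. The Hedgehog target Gli1 was at 61.6 to 146 CPM at 14 days, 77.5 to 1292 CPM at 6 days and 239 to 1801 CPM in control. Its 14-day libraries lay below every control, and its log2 fold change of -2.78 did not pass (adjusted p = 0.0848, edgeR). With range B as a covariate the 14-day value of Gli1 was -1.84 and passed (adjusted p = 0.0108, edgeR). Epcam had -0.36 at 14 days (adjusted p = 0.505). The 10 fibroblast markers summed to 43.9 to 73.7 CPM at 14 days, 47.9 to 140 CPM at 6 days and 127 to 218 CPM in control, nearly all of it Fbln2. Without it the other 9 summed to 3.15 to 6.94 CPM at 14 days, 0.505 to 13.4 CPM at 6 days and 2.73 to 7.84 CPM in control, Pdgfra reached at most 1.44 CPM and Mfap5 was at 0 in every library. With Fbln2 every 14-day library lay below every control, and without it the ranges overlapped. The part of fibroblasts in the lowered collagens was not tested. Of the 6 pericyte and smooth muscle markers 4 were tested, and 2 of these were called lower at 14 days. They were Kcnj8 (0.233 to 1.14 CPM against 15.4 to 46.2 CPM in control) and Abcc9 (0.185 to 0.493 CPM against 5.10 to 9.79 CPM in control). The 6 summed to 205 to 464 CPM at 14 days, 204 to 686 CPM at 6 days and 288 to 823 CPM in control. These ranges overlapped, and nearly all of each sum was Cspg4, which was not called. Without Cspg4 the list summed to 0.730 to 1.54 CPM at 14 days, 1.55 to 20.7 CPM at 6 days and 20.5 to 57.5 CPM in control. In control that smaller sum was mostly Kcnj8 and Abcc9. The defining marker Rgs5 was at 0 in every 6-day and control library. The part of the cells behind Kcnj8 and Abcc9 in the lowered collagens was not tested.

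The 7 myeloid markers summed to 22.7 to 34.4 CPM at 14 days, 1.22 to 9.36 CPM at 6 days and 4.04 to 14.3 CPM in control, and 2 were called higher at 14 days than in control and 4 than at 6 days. Their part in Lair1 was not tested. Endothelial markers summed to at most 6.69 CPM and muscle and adipocyte markers to at most 1.17 CPM in any library. The 7 melanocyte and Schwann cell markers varied within every group, at 42.4 to 298 CPM at 14 days, 48.7 to 707 CPM at 6 days and 30.2 to 512 CPM in control, and none was called.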

How the data were processed

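PolyA RNA of sorted tumour cells was sequenced in 15 libraries. The deposited counts are unique alignments per gene, per the file headers, and the deposited RPKM divide them by gene length and a library size factor. GSNAP and GRCm38 are named in the submitters' processing notes. The sources used here give neither annotation nor strand handling. Of 36528 genes 31049 matched RefSeq symbols, and 5479, with 1.24 to 1.59% of counts, did not.

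Groups came from the treatment labels, and replicates were numbered in accession order. All 105 pairs of libraries differed by more than sampling noise (chi-square at least 56.8 times its degrees of freedom). A floor of 3 counts per library was at most 0.11 CPM and covers counting error only. Counts were tested with edgeR 4.0.16 (TMM, filterByExpr, quasi-likelihood F test, 1 fit over all libraries, no covariate), leaving 18751 genes, 12 residual degrees of freedom and a common biological coefficient of variation of 0.579. Adjusted p-values are Benjamini-Hochberg over all genes tested. SE is the log2 fold change over the root of F. Named genes were all called members, the 3 most abundant of each class, and of each gene list all called genes and the most abundant uncalled one. Members, classes and lists were chosen with earlier results of these data known. The fit was tested on simulated data of 18751 genes, with changed genes drawn from those averaging over 2 CPM. For 14 days against control it recovered 63 of 100 genes changed 4-fold and 6 of 100 changed 2-fold, with 1 false call of 70. False calls were 8 of 116 for 6 days against control and 3 of 87 between the times. Alternatives were DESeq2 1.42.0, limma-voom (limma 3.58.1) with sample weights, RLE factors, 2 other filters, thinned counts, fits of 2 groups, the identifier ranges, and each library left out. Sequences came from RefSeq (GRCm38.p6) and exon overlaps from GENCODE.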

Additional observations from a re-analysis of the deposited data

Results flagged for a closer look

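Single libraries that stood far from the rest of their group were sought in 70 groups of 4 to 8 values, of which 7 were flagged where chance flags about 1 in 20. At 6 days replicate 7 gave 76.7 CPM of Col27a1, with the next library at 27.5 CPM, and 24.7 CPM of Col25a1, with the next at 12.5 CPM. The receptor gene Lair1 had 0.0480 CPM in 6-day replicate 5, with the next at 0.0113 CPM, and 0.705 CPM in control 1, the other controls being at 0. Bmp1 had 1038 CPM in control 4, with the next control at 356 CPM. The RPKM ratio of Col8a1 to Col8a2 was 1.37 in control 1, with the next at 0.267, and that of Col1a1 to Col1a2 was 9.05 in control 4, with the next at 1.64. Of the 7, 5 were in range B libraries, and the part of range B in them was not tested.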

How the results depend on the processing

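None of 21 called log2 fold changes of named genes changed sign under any alternative, and 14 of 60 uncalled ones did. Log2 ratio differences from control, whose alternatives were chosen after seeing the data, moved by less than the spread between libraries in all 8 pairs (without each library in turn, Col4a1 to Col4a2 differed by -1.06 to -0.80 at 6 days and -1.06 to -0.78 at 14 days, and Col9a2 to Col9a3 by 1.98 to 2.29 and 2.13 to 2.63). Of 16 such differences 4 changed sign, all between overlapping groups: Col6a1 to Col6a2 at 14 days (-0.72 to 0.16; at 6 days -0.64 to -0.52), Col4a3 to Col4a4 at 6 days (0.02 without control 2, against -0.15), Col8a1 to Col8a2 at 14 days (-0.37 without control 2, -0.45 without control 4 and -0.51 without 14-day replicate 1, against 0.17) and Col1a1 to Col1a2 at 14 days (0.40 without control 4, against -0.46). Counts of called collagens, against 9 at 14 days, 2 at 6 days and 0 between the times, were 15, 7 and 8 with DESeq2, 16, 9 and 10 with limma-voom, and 16, 9 and 3 with range B as a covariate. At 6 days 4 were called in range A alone and 4 without range B. Between the times 1 was called with a filter of 1 CPM, with thinned counts, without range B and with the 2 groups alone. Counts over all genes, against 1238, 236 and 730, were 2752, 846 and 2585 with DESeq2, 4205, 826 and 4693 with limma-voom, 3196, 866 and 2036 with range B as a covariate, and 2330, 465 and 1322 without it. They were 468 at 6 days in range A alone, 374 at 14 days with the 2 groups alone and 460 between the times with no filter. Leaving out 1 library gave 3 to 10 collagens at 14 days (3 without 14-day replicate 2 or 3, 4 without 14-day replicate 1), 0 to 4 at 6 days (0 without control 2, 3 or 4 or 6-day replicate 1, 2, 3 or 8, 1 without 14-day replicate 3 or 6-day replicate 5 or 6, 4 without 14-day replicate 1 or 6-day replicate 7) and 0 to 3 between the times (3 without control 4 or 6-day replicate 6, 1 without control 1), and 376 to 1438, 69 to 308 and 3 to 1138 over all genes. The cause was not tested. No paired analysis was possible because the labels give no replicate numbers. Range C and 14 days cannot be told apart.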
